A study of Mus musculus with 16 samples.

Results

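The cell cycle and mitosis genes described here are 43 symbols chosen by name, from the D-type cyclins of early G1 to the kinesins of the mitotic spindle, and their values were read in all 16 arrays of a comparison of wild-type and Lhx1-null cultures undergoing differentiation toward definitive endoderm (DE). All probes that the platform annotation gives to these symbols were taken, 92 of the 45281 probes on the Illumina Mouse WG-6 v2 array. Of the 43 genes, 41 had a probe, and 36 had a probe that was above background on 4 arrays or more (by a detection p under 0.01) and could be tested, among 10939 genes in all. Mki67, the proliferation antigen Ki-67, and Ccnb1, cyclin B1, had no probe in the annotation. Cdk6, Ccna2, Ccnb2, Bub1 and Kif20a had probes, but none was above background on any array.

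The cultures fell into 4 groups of 4: wild-type (Lhx1+/+) and Lhx1-null (Lhx1∆/∆), each after 5 or 6 days of differentiation. All were grown from embryonic stem (ES) cells with Activin-A, to which the methods add EGF, and were whole cultures rather than sorted cells. Per the methods the ES cell lines came from blastocysts of intercrosses of heterozygous mice, the conditional Lhx1 strain was kept on a mixed background, and independent lines served as biological replicates, but whether 1 number means the same line at both days is not labelled. The methods' day 4 is not analysed here. Where nothing shows that cultures came from different lines, p-values measure only the spread between these cultures.

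Cells pass through the cycle by switching on cyclin-dependent kinases (CDKs) in turn. D-type cyclins with CDK4 and CDK6 open G1, cyclin E with CDK2 and the E2F factors commit the cell to DNA synthesis, the MCM helicase and its loaders license replication origins, and cyclin B with CDK1 drives mitosis, which the spindle checkpoint holds until chromosomes are attached. Transcripts of many of these genes are made in one phase only, so that in a bulk sample their level follows the share of cells in that phase, and a larger share of dividing cells cannot be told apart from more RNA per cell. ES cells cycle fast, with a short G1, and lengthen G1 as they differentiate.

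No cell cycle gene passed the test between null and wild-type cultures at either day. With limma, 0 of the 36 genes tested passed a Benjamini-Hochberg adjusted p under 0.05 at day 5 and 0 at day 6, whereas 61 of all 10939 genes (0.558%) passed at day 5 and 172 (1.57%) at day 6. At an unadjusted p under 0.05 there were 3 cell cycle genes higher and 0 lower in null cultures at day 5, and 4 higher and 1 lower at day 6. The same limit was passed by 11.9% of all genes on the first of these days and 13.9% on the other. Split by direction, 4.26% of all genes were higher and 7.61% lower in null cultures at day 5, and 5.63% were higher and 8.31% lower at day 6. The difference between both null effects was past the adjusted threshold for 0 of the 36 genes, and for 0 of all genes tested (0%). At an unadjusted p under 0.05 it held 0 cell cycle genes, against 0.969% of all genes.

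The estimates bounded the size of a difference. At each day the 95% interval of the fold change lay within 2-fold in both directions for 30 of the 36 genes (83.3%), compared with 65.3% (day 5) and 64.9% (day 6) of all genes. The median residual SD between cultures of a group was 0.293 on the log2 scale for the cell cycle genes and 0.365 over all genes. Intervals that reached past 2-fold at day 5 belonged to Ccnd2, Cdc6, Mcm2, Pcna, Plk1 and Bub1b. At day 6 they belonged to Ccnd2, Ccnd3, Cdkn1a, Cdc6, Pcna and Plk1.

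The estimates leaned to one side, by little. The log2 fold change of null over wild-type was positive for 28 of the 36 genes (77.8%) at day 5 and for 27 (75%) at day 6, compared with 52% and 50.6% of all genes. It was positive at both days for 24 genes and negative at both for 5. The median log2 fold change of the 36 genes was 0.15 at day 5 and 0.11 at day 6, beside 0.015 and 0.0043 over all genes tested. Genes of a cycle share cells and arrays, so these counts are not independent of each other and carry no test.

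The median lay within the spread of single cultures. When each gene was set to its mean over the 16 arrays, the median deviation of the cell cycle genes per culture ran from -0.22 to 0.32 (log2). At day 5, replicates 1 to 4 had 0.12, -0.055, 0.021 and -0.22 when wild-type and 0.11, 0.32, 0.11 and -0.028 when null. At day 6 wild-type cultures had -0.22, 0.046, -0.18 and -0.13, and null cultures 0.0047, 0.049, 0.14 and -0.18. The groups overlapped at both days, and the within-group SD, pooled over the 4 groups, was 0.135. Single cultures moved the median fold change, which was 0.058 at day 5 without wild-type replicate 4, 0.24 at day 6 without wild-type replicate 2 and 0.24 at day 6 without null replicate 4. With median scaling of the arrays in place of quantile normalization the day 5 median was 0.28, but the median of all genes then stood at 0.12.

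**Figure D1:**
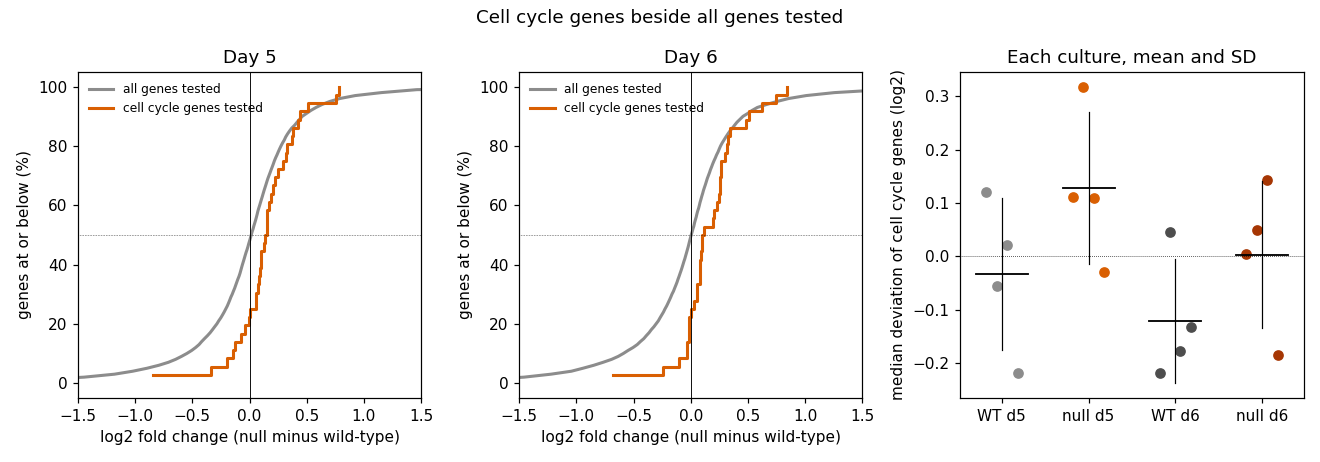
Cumulative share of genes (%, y axis) by log2 fold change of null over wild-type cultures (x axis, cut at 1.5 either way) for the 36 cell cycle genes tested (orange) and all 10939 genes tested (grey) at days 5 and 6, and the median deviation of the cell cycle genes in each of the 16 cultures (right, log2, with the mean and SD of each group of 4). The orange curve crosses 50% at 0.15 and 0.11, to the right of the grey curve, and the points of null and wild-type cultures overlap at both days.

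In lists chosen with earlier results of these data known, some markers of DE and of mesoderm differed with the genotype. Whether this follows the share of cells of each type or the RNA per cell was not tested. Of 11 DE markers tested, 2 were called lower in null cultures at each day (Sox17 and Hhex at day 5, Hhex and Trh at day 6). Among all 10939 genes, 54 were called lower and 7 higher at day 5, and 109 lower and 63 higher at day 6. The per-culture median deviation of the list ran at day 5 from 0.37 to 1.04 (wild-type) and from -2.98 to -0.36 (null), and at day 6 from 0.63 to 1.02 and from -1.84 to 0.41. The lowest were null day 5 replicate 4 and null day 6 replicate 2. The other null cultures had -0.96 to -0.36 at day 5 and -0.18 to 0.41 at day 6. Of 12 mesoderm markers tested, 1 was called higher at day 5 (Pmp22) and 4 at day 6 (Bmp4, Msx1, Tbx3 and Pmp22). Foxf1, Snai1, Gata2, Twist1, Tbx20, Kdr, Mesp1 and Tbx6 were not called at either day. The deviations of the mesoderm list ran at day 5 from -0.67 to -0.44 (wild-type) and from 0.037 to 1.91 (null), and at day 6 from -1.34 to -0.68 and from 0.51 to 1.58. Of the mesoderm markers not tested, Msx2, Hand1 and Hand2 were above background on at most 2 arrays and T had no probe, and the DE marker Epcam was above background on 0 arrays. Of 10 pluripotency markers tested 0 were called, and Dppa5a and Klf2 had the largest log2 fold changes, 2.43 at day 6 and 1.82 at day 5. Of the 10, 9 had positive log2 fold changes at day 5 and 8 at day 6, with medians of 0.99 and 0.78. Their per-culture deviation ran at day 5 from -1.45 to 0.067 (wild-type) and from -0.37 to 1.86 (null), and at day 6 from -1.83 to 0.82 and from -0.53 to 1.18. Null day 5 replicate 2 had the highest deviation of all 16 cultures for the pluripotency markers (1.86) and for the cell cycle genes (0.32), and wild-type day 6 replicate 1 the lowest for both (-1.83 and -0.22), whereas wild-type day 5 replicate 4, also at -0.22 for the cell cycle genes, had 0.057 for the markers. The part of this in the cell cycle values was not tested. Each array had between 10734 and 15453 probes above background, and replicate 3 had the fewest in each of the 4 groups. Lhx1 itself was read in every group by both of its probes, in null cultures between 7.70 and 14.49 on the log2 scale, and as nothing places these probes inside or outside the deleted exons, it does not check the labels.

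**Figure D2:**
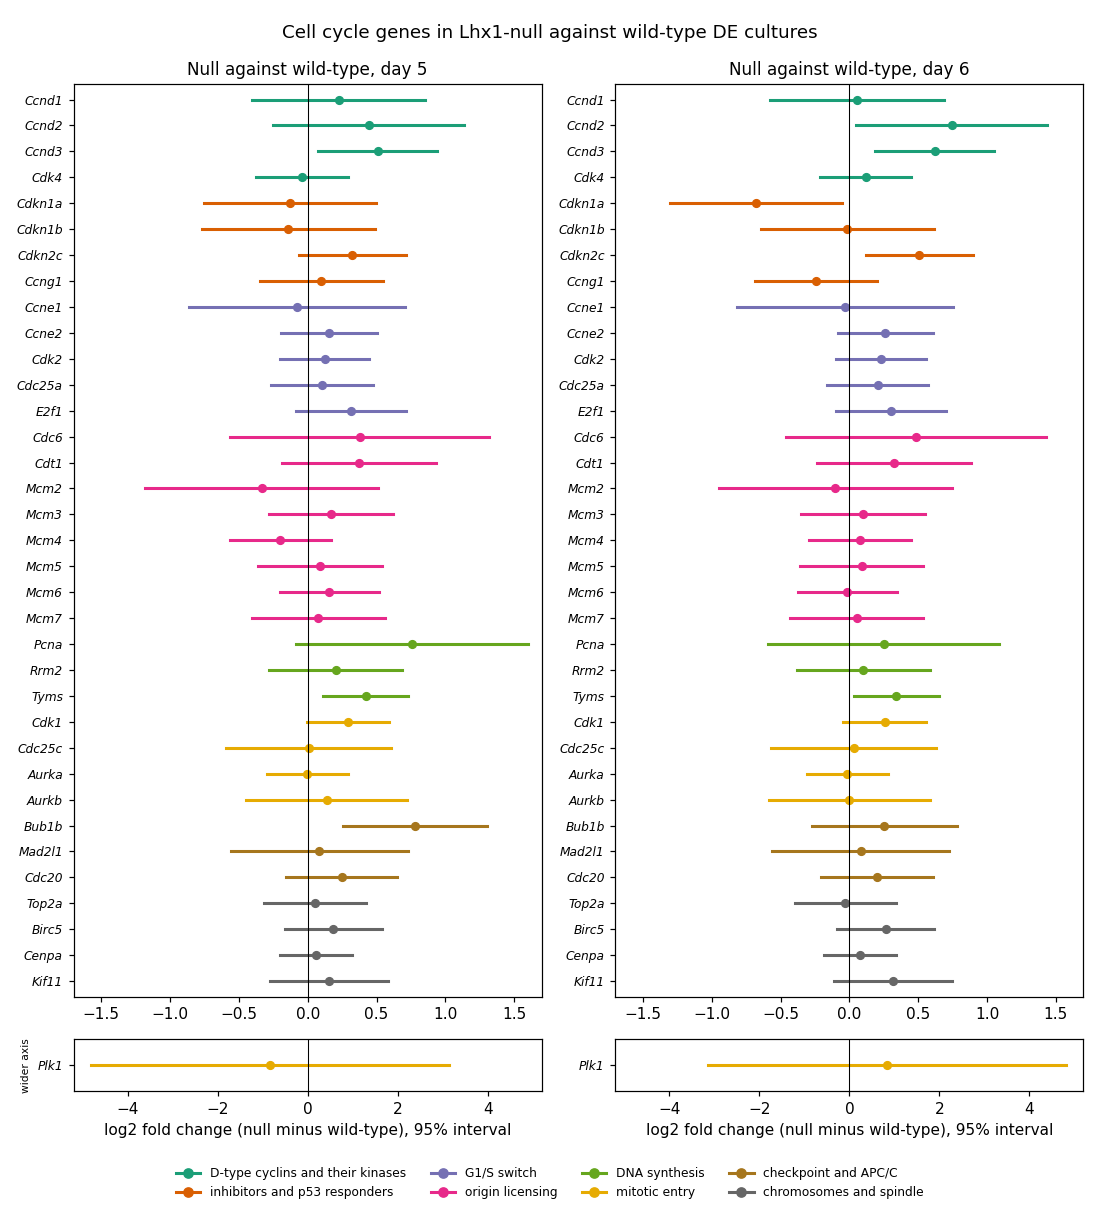
Log2 fold change of null over wild-type cultures (x axis) with its 95% interval from limma for the 36 cell cycle genes tested, coloured by role, at day 5 (left) and day 6 (right), 4 cultures a group. Points lie mostly right of 0, none passed the adjusted threshold, and Plk1, in the lower panels, has an interval so wide that it needs another axis.

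The promoters of genes of G1 and S and of genes of mitosis held different letters. Genes of late cycle are held down in resting cells by the DREAM complex at the cell cycle genes homology region (CHR), spelled TTTGAA, and genes of G1 and S are controlled by E2F factors, for which TTTGGCGC, TTTCGCGC, GGCGGGAA and TTTCCCGC were searched. The window was 250 bases before to 50 after the start in RefSeq (GRCm38.p6), read on both strands, and TTTCCCGC overlaps the reverse complement of GGCGGGAA. Of 14 windows of genes of mitosis 10 held the CHR letters (71.4%), against 1 of 25 windows of G1 and S genes (4%) and 17.9% of 32851 windows genome-wide. The E2F letters stood in 8 of 25 G1 and S windows (32%), in 1 of 14 mitosis windows (7.14%) and in 3.49% of all windows. Windows were found for 35 of the 43 genes, 39 in all, and 6 are shown, with all matches in capitals, because these genes had the largest mean fold changes of both days among those with a match. Bub1b (chr2:118597961-118598260 (+ strand)), Kif11 (chr19:37376132-37376431 (+ strand)) and Cdc20 (chr4:118437294-118437593 (- strand)) hold the CHR letters, Cdc6 (chr11:98907901-98908200 (+ strand)) and Cdt1 (chr8:122567765-122568064 (+ strand)) hold E2F letters, and Cdk1 (chr10:69352863-69353162 (- strand)) holds both.
Bub1b: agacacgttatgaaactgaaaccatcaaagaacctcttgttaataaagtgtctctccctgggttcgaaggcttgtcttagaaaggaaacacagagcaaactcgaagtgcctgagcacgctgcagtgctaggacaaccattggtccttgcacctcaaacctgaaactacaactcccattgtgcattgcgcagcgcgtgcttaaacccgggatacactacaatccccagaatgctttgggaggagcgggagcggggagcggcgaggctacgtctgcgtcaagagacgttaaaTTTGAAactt
Kif11: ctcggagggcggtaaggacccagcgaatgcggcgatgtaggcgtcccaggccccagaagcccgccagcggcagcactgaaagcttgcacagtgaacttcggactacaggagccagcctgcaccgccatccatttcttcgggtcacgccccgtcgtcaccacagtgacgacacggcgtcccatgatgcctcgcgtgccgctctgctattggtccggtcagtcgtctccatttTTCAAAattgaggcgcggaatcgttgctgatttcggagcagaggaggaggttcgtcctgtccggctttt
Cdc20: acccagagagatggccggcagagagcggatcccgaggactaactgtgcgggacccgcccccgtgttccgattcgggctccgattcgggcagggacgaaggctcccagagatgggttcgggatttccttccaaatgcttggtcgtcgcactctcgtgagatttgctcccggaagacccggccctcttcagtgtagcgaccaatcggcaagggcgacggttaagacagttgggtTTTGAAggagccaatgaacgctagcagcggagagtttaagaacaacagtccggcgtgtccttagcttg
Cdk1: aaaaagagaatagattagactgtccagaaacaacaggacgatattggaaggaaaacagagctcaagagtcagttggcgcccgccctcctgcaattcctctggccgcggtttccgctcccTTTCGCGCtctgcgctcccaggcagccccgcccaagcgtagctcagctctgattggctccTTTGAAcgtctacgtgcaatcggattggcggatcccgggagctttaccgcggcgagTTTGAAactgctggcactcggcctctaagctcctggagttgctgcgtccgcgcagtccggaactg
Cdc6: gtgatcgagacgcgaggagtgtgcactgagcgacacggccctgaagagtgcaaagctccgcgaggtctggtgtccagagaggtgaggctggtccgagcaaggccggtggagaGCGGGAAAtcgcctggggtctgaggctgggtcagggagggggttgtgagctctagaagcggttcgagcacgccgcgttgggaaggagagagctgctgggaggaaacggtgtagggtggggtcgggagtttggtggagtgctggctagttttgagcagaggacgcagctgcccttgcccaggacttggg
Cdt1: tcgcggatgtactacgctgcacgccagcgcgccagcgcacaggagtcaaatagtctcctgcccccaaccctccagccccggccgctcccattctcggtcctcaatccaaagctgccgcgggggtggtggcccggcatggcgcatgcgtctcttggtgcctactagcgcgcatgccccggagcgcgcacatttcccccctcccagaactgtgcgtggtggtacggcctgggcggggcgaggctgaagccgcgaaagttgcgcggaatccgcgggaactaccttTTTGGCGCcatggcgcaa

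The fold changes of genes with and without these letters were close. The 9 tested genes with a CHR match had a median log2 fold change of 0.060 at day 5 and 0.20 at day 6, and the 21 with a window but no match 0.16 and 0.12. For the E2F letters the medians were 0.16 and 0.20 over 9 genes with a match, and 0.099 and 0.12 over 21 without. A match is a run of letters and not a bound site.

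Among the D-type cyclins and their kinases, which open G1 and take up mitogen signals, 3 of 4 genes tested had positive estimates at day 5 and 4 of 4 at day 6, with medians of 0.34 and 0.37. Ccnd3 (cyclin D3, probe ILMN_3131063) had log2 intensities of 11.60, 11.76, 11.47 and 12.12 in wild-type cultures at day 5 and 12.02, 12.21, 12.08 and 12.67 in null cultures. The day 6 values were 11.76, 11.85, 11.75 and 11.63 in wild-type and 12.06, 12.91, 12.22 and 12.28 in null cultures. Every null culture lay above every wild-type culture at day 6, whereas at day 5 wild-type replicate 4 lay among the null cultures. The log2 fold change was 0.51 ± 0.20 (SE, n = 4) at day 5, with an adjusted p of 0.320 in limma, and 0.62 at day 6 (1.54-fold, 95% interval 0.19 to 1.05), with an adjusted p of 0.152. Only when limma weighted the arrays did Ccnd3 pass at day 6, with a log2 fold change of 0.50 and an adjusted p of 0.0496, in a fit that called 1153 genes in all. A further probe, ILMN_1246473, gave 0.41 and 0.73. Between cultures of the same number, Ccnd3 was higher in the null culture by 0.41, 0.45, 0.61 and 0.55 log2 units at day 5, though whether the numbers pair cultures is not settled. With the number as a block within each day, its adjusted p in limma was 0.157 at day 5 and 0.0732 at day 6. At day 5 all 4 same-numbered differences were positive for 5 of the 36 cell cycle genes (Ccnd3, Mcm6, Tyms, Cdk1 and Cdc20), compared with 11.2% of all genes, and all 4 were negative for 0, compared with 11.2% of all genes.

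Ccnd2 (cyclin D2, probe ILMN_2700166) had log2 intensities of 11.69, 12.03, 11.27 and 12.10 in wild-type and 13.14, 12.07, 12.18 and 11.47 in null cultures at day 5. The day 6 values were 11.41, 11.46, 12.21 and 11.96 in wild-type and 12.49, 12.03, 12.46 and 13.02 in null cultures. The groups overlapped at both days, through null replicate 2 alone at day 6, and null replicate 1 was the highest at day 5. Its log2 fold change was 0.44 at day 5 (95% interval -0.25 to 1.14, adjusted p = 0.651) and 0.74 at day 6 (0.049 to 1.44, adjusted p = 0.312) in limma. Its 2 other kept probes gave positive estimates at both days, from 0.55 to 0.91.

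Ccnd1 (cyclin D1, probe ILMN_1221503) was spread most widely in wild-type cultures at day 5, at 13.27, 12.13, 13.07 and 11.85 log2 intensity, and null cultures lay inside that range at 13.03, 12.77, 12.96 and 12.47. At day 6 the values were 12.01, 12.99, 12.42 and 12.27 in wild-type and 12.27, 12.71, 12.58 and 12.35 in null cultures. The null values lay inside the wild-type range at both days. The log2 fold changes were 0.23 and 0.05, and they were -0.02 at day 5 without wild-type replicate 4 and -0.08 at day 6 without wild-type replicate 1. Cdk4, the kinase partner of the D-type cyclins, had log2 fold changes of -0.04 and 0.12, with 95% intervals inside -0.37 to 0.45.

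The inhibitors of CDKs differed in direction among themselves. Cdkn1a (p21, which p53 induces, probe ILMN_2634083) had log2 intensities of 11.74, 11.95, 11.51 and 12.54 in wild-type and 11.67, 11.41, 12.27 and 11.85 in null cultures at day 5. The day 6 values were 12.76, 11.65, 12.61 and 11.97 in wild-type and 11.62, 11.16, 11.44 and 12.05 in null cultures. Wild-type replicates 1 and 3 were high at day 6 and the other two overlapped the null cultures. Its log2 fold change was -0.13 at day 5 (adjusted p = 0.908) and -0.68 at day 6 (95% interval -1.31 to -0.055, unadjusted p = 0.0349, adjusted p = 0.301) in limma. At day 6 the 2 other probes gave -0.73 and -0.51. The difference between both days' effects was -0.55, with an unadjusted p of 0.204.

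Cdkn2c (p18, an inhibitor of CDK4 and CDK6, probe ILMN_1228366) lay near the detection limit, above background on 11 of 16 arrays. Its log2 intensities were 7.30, 7.19, 7.71 and 7.08 in wild-type and 7.76, 7.72, 7.37 and 7.73 in null cultures at day 5, and 7.34, 7.13, 6.74 and 7.33 against 7.43, 7.96, 7.58 and 7.60 at day 6. Null replicate 3 was low at day 5, and at day 6 every null culture lay above every wild-type culture. Its log2 fold change was 0.33 at day 5 (adjusted p = 0.515) and 0.51 at day 6 (95% interval 0.12 to 0.90, adjusted p = 0.193) in limma. Cdkn1b (p27) had -0.14 and -0.02. Ccng1, the p53-induced cyclin G1, had 0.10 at day 5 and -0.24 at day 6, and its 2 further probes kept that order of signs.

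The genes of the G1/S switch lay close together. Their 5 estimates ran from -0.08 to 0.31 at day 5 and from -0.03 to 0.30 at day 6, and all 10 intervals lay within 2-fold. E2f1, the factor that switches on S phase genes (probe ILMN_1231138), had log2 intensities of 10.14, 10.28, 10.37 and 9.90 in wild-type and 10.50, 10.89, 10.18 and 10.38 in null cultures at day 5, and 10.18, 10.50, 10.16 and 10.24 against 10.36, 10.68, 10.97 and 10.27 at day 6. The groups overlapped at both days. Its log2 fold changes were 0.31 (95% interval -0.085 to 0.71, adjusted p = 0.551) and 0.30 (-0.097 to 0.70, adjusted p = 0.530) in limma. Ccne2 (cyclin E2) had 0.16 and 0.26, Cdk2, the kinase of cyclin E, 0.12 and 0.23, and Cdc25a, the phosphatase that frees Cdk2, 0.10 and 0.20. Ccne1 (cyclin E1) was the single gene of this role with negative estimates, -0.08 and -0.03.

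Origin licensing genes showed the same small estimates. Of 8 tested, 6 had positive values at each day, with medians of 0.12 and 0.08. Cdc6, a loader of the MCM helicase (probe ILMN_2597255), varied by 1 to 2 log2 units within every group but null day 5, at 10.40, 10.26, 9.18 and 8.69 in wild-type and 10.35, 10.38, 9.75 and 9.55 in null cultures at day 5, and 9.82, 8.96, 9.14 and 10.41 against 10.28, 9.60, 9.43 and 10.95 at day 6. High and low cultures occurred in both genotypes, so the groups overlapped. Its log2 fold changes of 0.38 and 0.48 had 95% intervals from -0.57 to 1.32 and from -0.46 to 1.43. Cdt1, the second loader, had 0.37 and 0.32. The helicase subunits Mcm3, Mcm5 and Mcm7 had 0.17, 0.09 and 0.08 at day 5 and 0.10, 0.09 and 0.05 at day 6. Mcm4 had -0.20 and 0.08, and Mcm2 had -0.34 and -0.10. Further Mcm4 probes, ILMN_2752009 and ILMN_2752010, gave 0.26 and 0.16 at day 5 and 0.23 and 0.22 at day 6. The negative Mcm4 value thus rests on the brightest probe alone, which read 14.78 in wild-type day 5 replicate 4. At day 5 it read 13.94 to 14.08 in the other wild-type cultures and 13.93 to 14.05 in null cultures. A further Mcm7 probe, ILMN_1213616, gave 0.12 and -0.14.

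Mcm6, another helicase subunit, was read by 4 kept probes that did not behave alike. The brightest, ILMN_2803399, had log2 fold changes of 0.16 and -0.02, and ILMN_1233857 had -0.10 and -0.12. Both stayed between 11.67 and 12.62 in all 16 cultures. ILMN_1236125, above background on 5 arrays, had 0.23 and 0.09. Probe ILMN_1217331 ran from 5.67 to 11.44, a wider range than 99.4% of all kept probes.

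In wild-type cultures ILMN_1217331 read 11.10, 10.97, 8.61 and 8.73 at day 5 and 10.24, 9.03, 9.45 and 11.44 at day 6. In null cultures it read 6.14, 6.16, 5.69 and 6.03 at day 5 and 10.10, 9.33, 6.81 and 5.67 at day 6. All 4 null cultures lay below all wild-type cultures at day 5, and 2 of 4 null cultures did so at day 6, when replicates 1 and 2 lay within the wild-type range. When every kept probe was tested as a feature of its own, limma gave it a log2 fold change of -3.85 at day 5, with an adjusted p of 0.0627, and of -2.06 at day 6, with an adjusted p of 0.315. Of the 10 kept probes whose values followed it most closely over the 16 cultures (Pearson r from 0.832 to 0.938, a description), 6 belonged to genes of chromosome 1, where RefSeq places Mcm6, compared with 5.15% of all placed probes. These were probes of Cops8, Ipo9, Insig2, Phlda3, Thap4 and Kdm5b, and the other 4 were 2 of Grb10 and 1 each of H13 and Pop4. They were looked for after the values were seen, and the cultures may share lines. The position of this probe within Mcm6 is not given in the sources used here, and whether its values follow the level of the transcript or the sequence under the probe was not tested.

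The 3 genes of DNA synthesis had positive estimates at both days. Tyms (thymidylate synthase, which makes dTMP, probe ILMN_2484707) had log2 intensities of 12.48, 12.42, 12.08 and 11.92 in wild-type and 12.48, 12.76, 12.59 and 12.76 in null cultures at day 5. The day 6 values were 12.02, 12.28, 11.97 and 12.32 in wild-type and 12.50, 12.48, 12.43 and 12.54 in null cultures. Null and wild-type cultures did not overlap at either day, at day 5 by a margin below the second decimal. The log2 fold change was 0.42 ± 0.14 (SE, n = 4) at day 5 (1.34-fold, adjusted p = 0.232) and 0.34 at day 6 (1.27-fold, 95% interval 0.033 to 0.65, adjusted p = 0.292) in limma. A further probe, ILMN_1247173, gave 0.57 and 0.67.

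Groups without overlap were counted over all genes too. Tyms was the 1 cell cycle gene of 36 whose null cultures all lay above all wild-type cultures at day 5, which held for 2.08% of all genes. At day 6 there were 4, Ccnd3, Cdkn2c, Tyms and Birc5, against 3.46% of all genes. The reverse order, found for 3.43% and 5.67% of all genes, held for 0 cell cycle genes at either day, with 0 called lower by limma and Cdkn1a alone lower at an unadjusted p under 0.05.

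Pcna (the sliding clamp of DNA polymerases, probe ILMN_2762026) was above background on 12 of 16 arrays. Its log2 intensities were 7.99, 7.95, 7.42 and 6.55 in wild-type and 7.53, 9.32, 8.10 and 7.98 in null cultures at day 5, and 7.62, 7.95, 7.92 and 7.81 against 8.31, 8.43, 8.37 and 7.18 at day 6. Null replicate 2 was high and wild-type replicate 4 low at day 5, and at day 6 null replicates 1 to 3 lay above all wild-type cultures and null replicate 4 below them. The log2 fold changes of 0.76 and 0.25 had 95% intervals from -0.086 to 1.599 and from -0.60 to 1.09, and adjusted p-values of 0.478 and 0.883 in limma. Rrm2, the small subunit of ribonucleotide reductase, had 0.20 and 0.10.

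**Figure D3:**
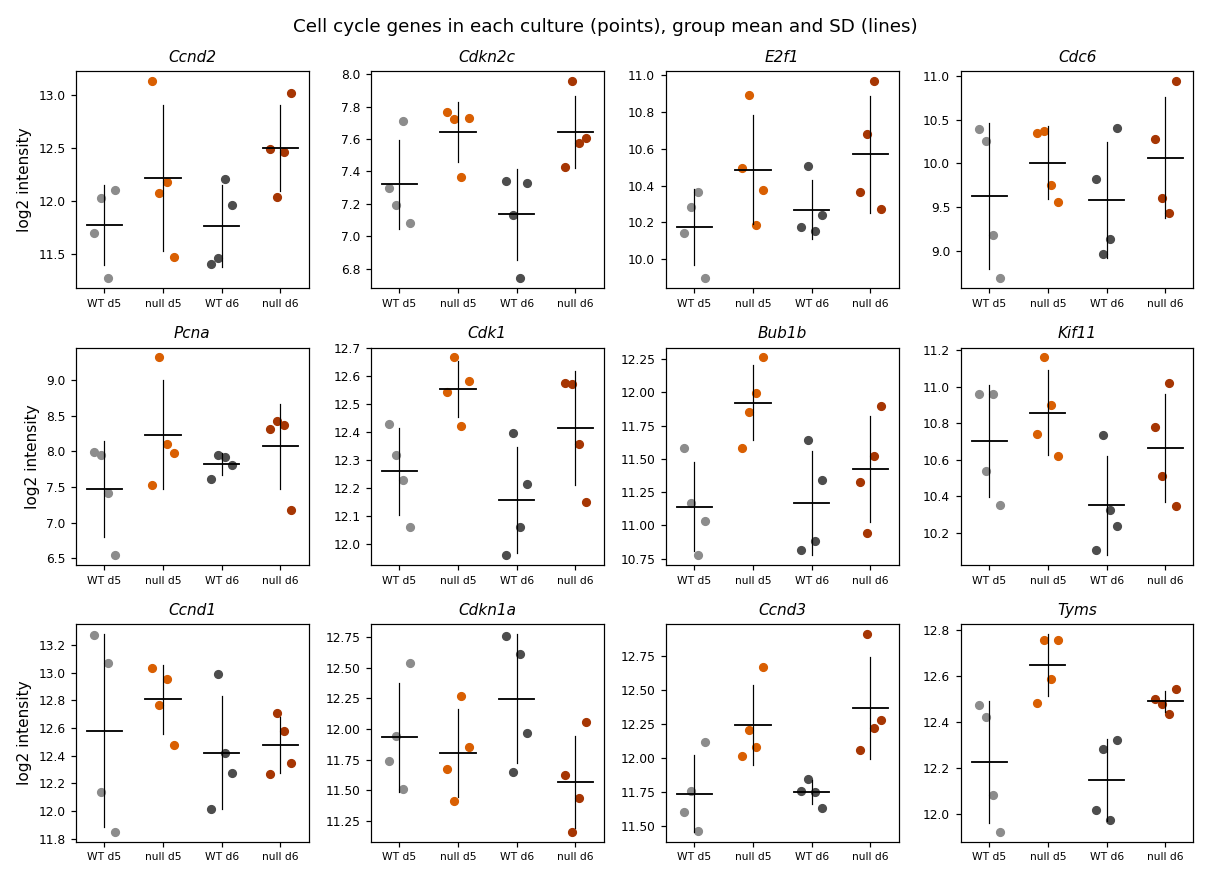
Log2 intensity (y axis, a scale of its own in each panel) of 12 cell cycle genes in each of the 16 cultures (points), with the mean and SD of each group of 4 (lines). Groups overlap in most panels. Tyms does not overlap between genotypes at either day, and Ccnd3 and Cdkn2c do not at day 6.

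Of the genes of mitotic entry, Cdk1, the kinase that drives mitosis (probe ILMN_2657844), varied little, with a residual SD of 0.166, above that of 8.68% of all genes. Its log2 intensities were 12.43, 12.32, 12.23 and 12.06 in wild-type and 12.54, 12.67, 12.42 and 12.58 in null cultures at day 5, and 11.96, 12.40, 12.06 and 12.21 against 12.57, 12.57, 12.36 and 12.15 at day 6. Wild-type replicate 1 overlapped the lowest null culture at day 5, and the groups overlapped at day 6. The log2 fold changes were 0.29 (95% interval -0.0066 to 0.59, adjusted p = 0.433) and 0.26 (-0.043 to 0.55, adjusted p = 0.454) in limma. Aurka, the centrosomal Aurora kinase, had -0.004 and -0.015, with intervals inside -0.31 to 0.29. Aurkb, the Aurora kinase of the chromosomal passenger complex, had 0.14 and -0.0001. Cdc25c, a phosphatase that activates Cdk1, had 0.007 and 0.03.

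Plk1, the Polo-like kinase of mitotic entry, was read by 1 probe, ILMN_1255053, whose range of 6.56 log2 units exceeded that of 99.8% of kept probes. Wild-type cultures read 6.47, 6.68, 12.22 and 12.66 at day 5 and 11.46, 12.98, 8.47 and 6.77 at day 6. Null cultures read 6.96, 12.28, 9.01 and 6.42 at day 5 and 11.90, 12.16, 12.07 and 6.90 at day 6. Values under 7 and values over 11 occurred in every group, and the probe was above background on 11 arrays. The log2 fold changes of -0.84 and 0.84 had 95% intervals from -4.81 to 3.13 and from -3.13 to 4.81, so that the size of a difference is hardly bounded. The kept probe that followed it most closely was one of Rps13, a ribosomal protein gene, with r = 0.94 over the 16 cultures, and RefSeq places both genes on chromosome 7. The next was one of Yif1b, also of chromosome 7 (r = 0.821), and of the 7 placed probes among the 10 closest, 2 belonged to that chromosome, which holds 7.11% of all placed probes. As for the Mcm6 probe, the level of the transcript and the sequence under the probe were not tested apart.

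**Figure D4:**
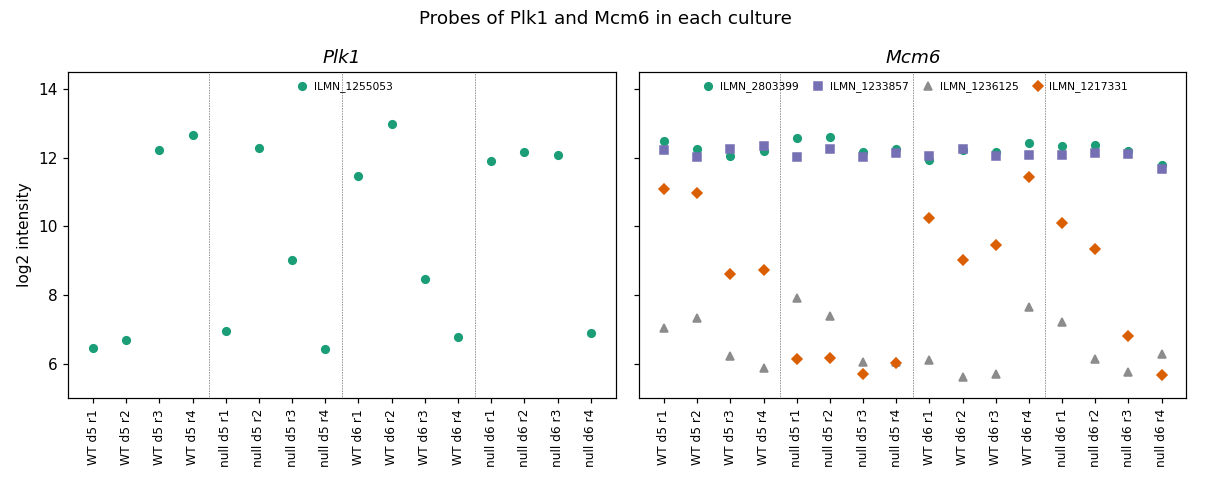
Log2 intensity (y axis) of the probe of Plk1 (left) and of the 4 kept probes of Mcm6 (right) in each of the 16 cultures (x axis, WT for wild-type, d for day, r for replicate). The Plk1 probe ranges from 6.42 to 12.98 without following genotype or day, and probe ILMN_1217331 of Mcm6 ranges from 5.67 to 11.44 while ILMN_2803399 and ILMN_1233857 stay within 11.67 to 12.62.

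All 3 checkpoint genes tested had positive estimates at both days with their brightest probes. Bub1b (BubR1, a kinase-like part of the mitotic checkpoint, probe ILMN_2774007) had log2 intensities of 11.58, 11.17, 10.78 and 11.03 in wild-type and 11.58, 11.85, 11.99 and 12.26 in null cultures at day 5. The day 6 values were 10.81, 11.64, 10.88 and 11.34 in wild-type and 11.32, 10.94, 11.52 and 11.90 in null cultures. At day 5 wild-type replicate 1 met the lowest null culture, and at day 6 the groups overlapped. The estimate was 0.78 on the log2 scale at day 5 (1.72-fold, 95% interval 0.26 to 1.31), the highest positive estimate of the 36 genes at that day, with an adjusted p of 0.191, and 0.25 at day 6 (adjusted p = 0.754) in limma. A further probe, ILMN_2985969, gave 0.07 at day 5 and 0.25 at day 6, so the day 5 value rests on 1 of 2 probes. Cdc20, the activator of the anaphase-promoting complex, had 0.25 and 0.20 with its brightest probe and positive values with its 3 others. Mad2l1 (Mad2, which holds Cdc20 inactive) had 0.08 at both days, but a further probe, ILMN_2776857, gave -0.15 and 0.55.

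Genes of chromosomes and spindle had small estimates with their brightest probes. Kif11, the kinesin Eg5 that separates spindle poles (probe ILMN_2866970), had log2 intensities of 10.96, 10.54, 10.96 and 10.35 in wild-type and 10.74, 11.16, 10.90 and 10.62 in null cultures at day 5, and 10.10, 10.73, 10.32 and 10.24 against 10.78, 10.51, 11.02 and 10.35 at day 6. The groups overlapped at both days, and the log2 fold changes were 0.15 (95% interval -0.28 to 0.58) and 0.32 (-0.11 to 0.75). Birc5 (survivin, a passenger complex subunit) had 0.19 and 0.26, and at day 6 its null cultures, from 13.02 to 13.19, lay above its wild-type cultures, from 12.65 to 12.95. Cenpa, the centromeric histone H3, had 0.06 and 0.08, with intervals inside -0.20 to 0.34, and a further probe, ILMN_2471161, gave 0.06 and 0.31. Top2a, the topoisomerase of chromosome condensation, had 0.05 and -0.03. Its further probe ILMN_1255436 gave 0.37 and 0.47, and ILMN_1242235, above background on 4 arrays, 0.05 and 0.02.

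More than 1 kept probe was available for 21 of the 36 genes. Of their 34 further probes, 28 had the same sign as the brightest probe at day 5 and 30 at day 6. With every kept probe as a feature, the median log2 fold change was 0.15 at day 5 and 0.21 at day 6.

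Wider lists of the cycle likewise held no called gene. Of 41 other replication genes tested (of 48 listed) 0 were called at either day, 33 and 29 were positive, and the medians were 0.12 and 0.14. Pole, the catalytic subunit of DNA polymerase epsilon, and Lig1, DNA ligase I, had the largest estimates, 0.68 and 0.45 at day 5 and 0.49 and 0.52 at day 6. Pole was above background on 12 arrays. Without adjustment 0 of the 41 had a p under 0.05 at day 5, and 1 was higher and 0 lower at day 6. At that limit 4.26% of all genes were higher and 7.61% lower at day 5, and 5.63% and 8.31% at day 6. Of 42 other mitosis genes tested (of 53) 0 were called, 37 and 35 were positive, and the medians were 0.20 and 0.21. At an unadjusted p under 0.05, 2 of the 42 were higher and 0 lower at day 5, and 6 higher and 0 lower at day 6, beside the same shares of all genes. Ttk, the checkpoint kinase Mps1, had the largest estimate, 0.85 at day 6 but -0.05 at day 5. It was above background on 4 arrays, and at day 6 null replicate 3 read 8.67 and the other null cultures 6.25 to 7.62. Nuf2, of the kinetochore, above background on 8 arrays, had 0.83 at day 5 but -0.44 at day 6.

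Among the other regulators of G1 and the p53 targets 0 genes were called too. Of 20 G1 regulators tested (of 25), 10 and 11 were positive, and the medians were -0.008 and 0.13. Past an unadjusted p of 0.05, 3 were higher and 0 lower at day 5, and 2 were higher and 2 lower at day 6. Of all genes, 4.26% were higher and 7.61% lower at day 5, and 5.63% and 8.31% at day 6. The 2 with the largest estimates were both inhibitors of CDKs. Cdkn1c (p57) had -2.13 at day 5 (adjusted p = 0.433 in limma) and -1.15 at day 6. Its null cultures read from 8.99 to 12.81 at day 5 and from 8.89 to 14.87 at day 6. Cdkn2b (p15), above background on 10 arrays, had -0.84 at day 5 and -2.35 at day 6 (adjusted p = 0.106 in limma). The other CDK inhibitors of this list differed in direction, Cdkn2a with -1.20 and -1.51 and Cdkn2d with 0.47 and 0.37. Of 15 p53 targets tested (of 20), 9 were positive at day 5 and 5 (33.3%) at day 6, with medians of 0.07 and -0.18. At an unadjusted p under 0.05, 2 were higher and 1 lower at day 5, and 0 were higher and 2 lower at day 6, beside the same shares of all genes. At day 5, 1 of the 15 had every null culture above every wild-type culture (2.08% of all genes) and 1 had every one below (3.43%). At day 6 these were 0 (3.46% of all genes) and 2 (5.67%). Ccng2 (cyclin G2), above background on 5 arrays, had -0.88 and -0.40, and Aen, a nuclease, on 9 arrays, 0.72 and 0.38.

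Between days the median of the cell cycle genes was slightly lower at day 6 in both genotypes. With limma 0 of 36 were called in wild-type and 0 in null cultures, as were 0 of all genes (0%) in each. At an unadjusted p under 0.05 there were 0 in wild-type (1.22% of all genes) and 1 lower in null cultures (4.07% of all genes), Aurka, with a log2 fold change of -0.30 (95% interval -0.59 to -0.0027). In wild-type cultures Aurka had nearly the same value, -0.29 (95% interval -0.58 to 0.0082, unadjusted p = 0.0559 in limma). The log2 fold change of day 6 over day 5 was positive for 10 of 36 genes in wild-type and 9 of 36 in null cultures, compared with 48.6% and 46.8% of all genes. The medians were -0.08 and -0.13, beside -0.0055 and -0.018 over all genes. In wild-type cultures the lowest estimates were those of Ccne1, Kif11 and Mcm4 (-0.35 each). The Mcm4 probe read 14.78 in wild-type day 5 replicate 4, and 13.94 to 14.08 in the other wild-type cultures of that day. The 95% interval lay within 2-fold for 32 of 36 genes in wild-type and 31 in null cultures.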

How the data were processed

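RNA of 16 cultures was measured on Illumina arrays. The authors deposited probe intensities without normalization, on a linear scale, and detection p-values against the negative controls, made with GenomeStudio (version not given in the sources used here). A second deposited table, of rank-invariant intensities, is a linear rescaling of each array and was used as an alternative only. The authors' test was not repeated.

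The table without normalization was processed in R 4.3.3 with limma 3.58.1. neqc (offset 16) used those p-values to remove background and gave quantile-normalized log2 intensities. A probe was kept where its detection p fell under 0.01 on 4 arrays or more (15593), and the brightest kept probe stood for a symbol, probes without a symbol for themselves (1995 of 10939 features, called genes here). One limma model with a mean per group was fitted to all genes, with Benjamini-Hochberg adjustment over all of them and calls at an adjusted p under 0.05. The fit was tested on simulated data. Signal over background and the number of arrays limit the precision.

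The members, their roles and the 7 other lists were chosen with earlier results of these data known, so no list was tested as a set. Values of every culture are given for Pcna, Ccnd1 and Cdkn1a as usual markers and for the gene of each role with the largest absolute mean of both days' fold changes. Ccnd3, Tyms, Plk1, Birc5 and the further Mcm6 probe were added after their values were seen. Of each other list the called genes are named, or the 2 with the largest absolute fold change. The mesoderm markers not called and the other CDK inhibitors among the G1 regulators were added beside these. Promoter windows came from RefSeq. Titles gave the groups and replicate numbers. The descriptions of null day 6 replicates 3 and 4 give both as replicate 2. Whether numbers pair cultures was read from correlations of deviations from the group means, not from the labels. Between genotypes those of the same number ran from 0.139 to 0.36 at day 5, all 4 over 0.1, and from -0.0439 to 0.441 at day 6. Same-numbered differences are therefore given for day 5 only, as a description, and the main model holds no block for the number. At both days only 2 of the 4 wild-type cultures were closest to the null culture of their own number. Whether the numbers pair cultures at either day is therefore not settled. Between days the correlations of the same number ran from -0.439 to 0.081 (wild-type) and from -0.321 to 0.376 (null). Alternatives were other background corrections, offsets, normalizations, filters, probe rules, blocks, array weights and leaving out cultures.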

Additional observations from a re-analysis of the deposited data

Results flagged for a closer look

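The values of 13 cell cycle genes and the median deviation of all of them were examined for single cultures far from the other 3 of their group, in 56 groups, of which chance marks about 1 in 20. In 3 groups 1 culture stood apart, each time as the lowest. Cdkn2c read 7.37 (log2 intensity) in null day 5 replicate 3, and 7.72 to 7.76 in the other 3 cultures. Pcna read 7.18 in null day 6 replicate 4, and 8.31 to 8.43 in the others. Plk1 read 6.90 in null day 6 replicate 4, and 11.90 to 12.16 in the others. The cause was not tested.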

How the results depend on the processing

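No cell cycle gene was called in any of the 5 comparisons under the alternatives run, leaving out each culture included, except that array weights called 1 gene at day 6 (Ccnd3, 0.50), and the cause was not tested. The median log2 fold change stayed positive throughout. At day 5 it was 0.28 with median scaling, and from 0.058 to 0.20 when single cultures were left out. At day 6 it was 0.082 to 0.24 when single cultures were left out, and 0.095 to 0.21 under the other alternatives.

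Some estimates turned sign, none of them called. Without both null day 6 cultures of conflicting labels, Bub1b at day 6 was -0.035. Without wild-type day 5 replicate 4, Ccnd1 at day 5 was -0.018, Cdkn1a 0.073 and Plk1 0.21, and without replicate 3 Plk1 was 0.06. With median scaling Cdkn1a at day 5 was 0.017. At day 6 Ccnd1 was -0.024 without null replicate 2, and also without both null cultures that stand apart. These are null day 5 replicate 4 and null day 6 replicate 2, the lowest of their groups in the DE markers. Ccnd1 at day 6 was -0.082 without wild-type replicate 1, and Plk1 was -0.21 without wild-type replicate 4. Leaving out single cultures gave ranges of -0.018 to 0.46 for Ccnd1, -0.29 to 0.073 for Cdkn1a and -2.05 to 0.21 for Plk1 at day 5, and of -0.082 to 0.24 for Ccnd1 and -0.21 to 2.12 for Plk1 at day 6.

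With a replicate block by number within each day, 0 cell cycle genes were called at either day, and 72 and 170 genes in all, the lowest adjusted p of a cell cycle gene being 0.157 and 0.0732. With 1 replicate block over both days, 0 were called, and 14 and 90 genes in all, the lowest being 0.248 and 0.145. The block changed no call of a cell cycle gene. The main model did not take the numbers to pair the cultures, and the labels do not settle it.

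Weak signal limits Pcna, Cdkn2c and Plk1, which were above background on 11 or 12 of 16 arrays, and leaves Cdk6, Ccna2, Ccnb2, Bub1 and Kif20a without a value. It also limits Ttk, Nuf2, Ccng2, Aen, Cdkn2b and Pole of the other lists. Arrays of whole cultures do not count dividing cells.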
